A study of Mus musculus with 20 samples.

Results

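The genes described here make and move bile acids in the mouse liver. They are 10 genes listed by name: Cyp7a1, Cyp8b1, Cyp27a1, Cyp7b1, Baat, Slc10a1, Abcb11, Abcb4, Nr0b2 and Nr1h4. All 10 matched 1 identifier each among the 46603 gene identifiers counted, and all 10 had enough reads to be tested. Liver RNA was sequenced in bulk from 10 male mice aged 2 months, each sampled before and after surgery, which gave 20 libraries in 4 groups of 5. The wild-type (WT) mice were C57BL/6J animals bought from a vendor. The knockout mice (KO, named EedHepKO by the submitters) combined an Alb:Cre transgene, which drives Cre recombinase from the albumin promoter, with Eed alleles carrying loxP sites around exons 3 and 6. EED is a core subunit of polycomb repressive complex 2, which methylates histone H3. The baseline samples were lobes 1, 2 and 3, removed during a partial hepatectomy (PHx), and the samples after PHx were lobes 4, 5 and 6 of the same animals. Collection after PHx was at 30 h for mice WT 1 and KO 12, at 40 h for WT 2, WT 3, KO 10 and KO 11, and at 48 h for WT 4, WT 5, KO 7 and KO 8. Genotype cannot be told apart from colony, nor PHx from the lobe sampled and no group with Cre alone was among the samples. KO mice are listed in the order 7, 8, 10, 11 and 12 throughout. The title of the WT 1 baseline library holds no mouse number, and it was taken as mouse 1 by elimination.

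Bile acids are made from cholesterol in hepatocytes. The classical route starts with CYP7A1, and CYP8B1 then sets how much of the product becomes cholic acid. An alternative route starts with CYP27A1 and continues through CYP7B1. BAAT joins bile acids to taurine or glycine. SLC10A1 (NTCP) takes bile acids up from portal blood, ABCB11 (BSEP) pumps them into bile, and ABCB4 moves phosphatidylcholine into bile, where it protects the ducts from bile acids. The bile acid receptor FXR, encoded by Nr1h4, induces Nr0b2, which encodes the co-repressor SHP, and SHP in turn lowers expression of Cyp7a1 and Cyp8b1. In the intestine FXR induces the hormone FGF15, which acts on the liver through FGFR4 and its co-receptor KLB to the same end.

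In build mm10 with the GENCODE M21 annotation all 10 are protein coding. Cyp7a1 (chromosome 4, 6265612 to 6275633) and Baat (chromosome 4, 49489422 to 49506557) lie on the minus strand, as do Cyp8b1 (chromosome 9, 121914356 to 121916305) and Cyp7b1 (chromosome 3, 18071950 to 18243338). Cyp27a1 (chromosome 1, 74713574 to 74737892) and Nr0b2 (chromosome 4, 133553376 to 133556536) lie on the plus strand. Of the transporters, Slc10a1 (chromosome 12, 80953183 to 80968705) and Abcb11 (chromosome 2, 69238282 to 69342616) are on the minus strand and Abcb4 (chromosome 5, 8893717 to 8959231) on the plus strand, and the receptor gene Nr1h4 (chromosome 10, 89454234 to 89533585) is on the minus strand. Abcb11 is overlapped by Gm13613 and Gm13614 on the other strand, and the strand setting of the counting is not given in the sources used here, so reads of these genes cannot be told apart. Gm23686 overlaps Cyp7b1 and Gm17936 overlaps Abcb4 on the same strand.

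Promoter pieces are shown for 3 members whose known regulation is part of this loop: the exporter gene Abcb11 and the repressor gene Nr0b2, both induced by FXR, and Cyp8b1. Each is the 120 bases just before the gene's start, from RefSeq in build GRCm38.p6 (Abcb11 at chr2:69342617-69342736 on the minus strand, Cyp8b1 at chr9:121916306-121916425 on the minus strand, Nr0b2 at chr4:133553256-133553375 on the plus strand). Capitals mark the letters searched for.
Abcb11: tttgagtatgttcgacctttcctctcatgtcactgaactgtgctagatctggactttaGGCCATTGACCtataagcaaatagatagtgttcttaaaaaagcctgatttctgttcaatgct
Cyp8b1: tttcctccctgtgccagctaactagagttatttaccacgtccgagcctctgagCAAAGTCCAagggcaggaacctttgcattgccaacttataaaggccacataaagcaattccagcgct
Nr0b2: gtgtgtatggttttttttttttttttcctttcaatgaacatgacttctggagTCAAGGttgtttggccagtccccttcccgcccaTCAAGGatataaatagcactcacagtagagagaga
In Abcb11 the capitals are an inverted repeat of GGNCA and TGANC spaced by 1 base, the arrangement that FXR with its partner RXR is known to bind, at -62 to -52 from the start. This pattern, searched on both strands, was in 1.12% of 32851 mouse RefSeq promoter windows. Each window, and each share given here, covers 300 bases, from 250 before to 50 after the start, which is longer than the pieces printed. In Cyp8b1 they are CAAAGTCCA at -67 to -59, a form of the element bound by HNF4A, which 0.475% of these windows held. In Nr0b2 they are TCAAGG at -68 to -63 and again at -35 to -30, the core letters of sites for the receptor LRH-1, which 14.4% of these windows held. These letters were chosen after the sequences were seen, and a match describes the sequence only. No other promoter of the 7 members in the table held any of these patterns in its window. Cyp7a1, Cyp7b1 and Baat are named only.

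Total counts ran from 21634890 to 30461351 per library. Levels are given as CPM, counts per 1000000 after scaling each library by edgeR's TMM factor, which was 0.67 to 0.806 in WT at baseline and 0.983 to 1.19 in KO at baseline. Against plain library size this scaling lowered the median log2 fold change of all genes in KO against WT at baseline from 0.45 to -0.03, so all differences are relative to TMM. Eed was at 14.6 to 23.2 CPM in the WT libraries and at 2.75 to 7.52 CPM in the KO libraries. Summed over 11 hepatocyte markers, the level was 138100 to 158200 CPM in WT at baseline and 84430 to 112500 CPM in KO at baseline. After PHx it was 81570 to 125900 CPM in WT and 43800 to 102400 CPM in KO. Of 5 other cell types, 4 had higher marker sums in every KO baseline library than in any WT one. The sum of 12 cholangiocyte genes was 133 to 178 CPM in WT and 204 to 516 CPM in KO. The sum of 10 macrophage genes was 162 to 287 CPM in WT and 387 to 487 CPM in KO, and that of 10 stellate cell genes was 198 to 331 CPM and 495 to 638 CPM. For 10 endothelial genes it was 275 to 315 CPM in WT and 334 to 389.7 CPM in KO, and for 10 lymphocyte genes it overlapped, at 7.72 to 12.2 CPM and 10.7 to 28.3 CPM. The defining cholangiocyte marker Krt19 was at 0.412 to 0.975 CPM in WT and at 1.56 to 3.43 CPM in KO at baseline. The part of these shifts in the results below was not tested. In bulk RNA, fewer cells of a type cannot be told apart from less RNA per cell. Tests are edgeR quasi-likelihood tests over 14661 genes, and a gene is called at a Benjamini-Hochberg adjusted p under 0.05.

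**Figure D1:**
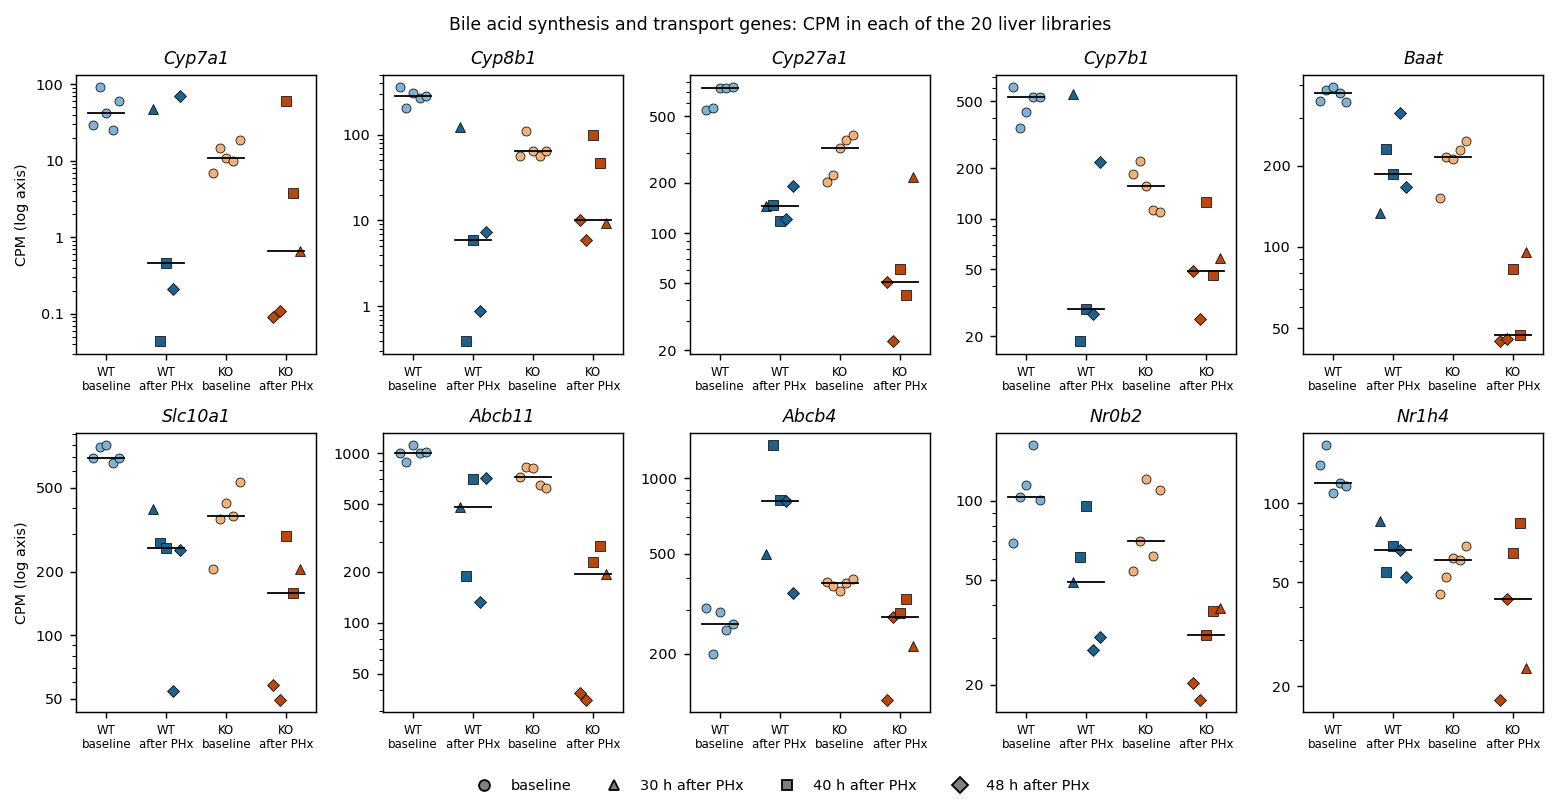
CPM (log axis) of the 10 bile acid genes in each of the 20 libraries. Circles are baseline libraries, triangles 30 h, squares 40 h and diamonds 48 h after PHx, and bars are group medians. In the baseline groups 8 genes were lower in every KO library than in any WT library, and after PHx Cyp7a1 ran from 0.0435 to 70.8 CPM in WT.

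In resting liver, 8 of the 10 genes were lower in all 5 KO mice than in any WT mouse, and Abcb4 was higher in all 5. Nr0b2 overlapped. Over all genes tested, 12.2% were lower and 15.6% higher without overlap between these groups. In the fit of all 20 libraries, which shares 1 estimate of spread per gene, 2 members were called, Baat and Nr1h4, both lower in KO, where 4.89% of all genes were called lower and 11.1% higher. With only the 10 baseline libraries fitted, 9 members were called, 8 lower and Abcb4 higher, where 18% of genes were called lower and 21.4% higher. The median log2 fold change of the members was -1.05, against -0.03 for all genes.

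Cyp7a1, the rate-limiting enzyme of the classical route, had 29.7, 91.5, 41.8, 25.4 and 61.2 CPM in mice WT 1 to WT 5 at baseline. In KO at baseline it had 6.94, 14.8, 11, 10.01 and 18.5 CPM in mice 7, 8, 10, 11 and 12. Every KO library was below every WT library, although the WT mice themselves differed 3.61-fold. The log2 fold change was -2.03 (SE 1.44, adjusted p 0.363) in the fit of all libraries and -2.01 with an adjusted p of 0.000736 in the fit of the baseline libraries. Cyp8b1, the 12α-hydroxylase, showed the same separation with less spread. It had 356, 203, 305, 269 and 285 CPM in WT 1 to 5 and 55.7, 110.0, 65.1, 55.6 and 64.1 CPM in the 5 KO mice. Its log2 fold change was -2.02 (SE 1.03, adjusted p 0.191), and the adjusted p was 1.9e-05 in the baseline fit.

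The genes of the alternative route had lower values in all resting KO livers too. Cyp27a1, the mitochondrial sterol 27-hydroxylase, had 664.5 ± 102 CPM (SD, n = 5) in WT and 299 ± 82.8 CPM (SD, n = 5) in KO. The change of -1.15 had an adjusted p of 0.0601, and of 0.00035 in the baseline fit. Cyp7b1, the oxysterol 7α-hydroxylase, had 488 ± 101 CPM (SD, n = 5) in WT and 157 ± 47.1 CPM (SD, n = 5) in KO. Here the log2 fold change was -1.64, with an adjusted p of 0.115 over all libraries and 0.000105 in the baseline fit. For Baat the WT libraries were at 344.5 to 391.9 CPM and the KO libraries at 152 to 248 CPM. Its change of -0.80 (SE 0.24) passed in both fits, with adjusted p 0.0288 and 0.000283. The first of these calls was lost without WT baseline replicate 2, 3 or 4 or KO baseline replicate 7 or 10, with an adjusted p of up to 0.143, and also with library size alone or with no filter.

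Of the transporters, Slc10a1 and Abcb11 were lower and Abcb4 was higher in every KO liver than in any WT liver. Slc10a1 had 722 ± 61.0 CPM (SD, n = 5) in WT and 375.5 ± 118 CPM (SD, n = 5) in KO at baseline. Its log2 fold change was -0.94 (adjusted p 0.161, and 0.00217 in the baseline fit). Abcb11 moved least of the 8, from 882 to 1112 CPM in WT to 627 to 827 CPM in KO. Its log2 fold change was -0.46 (adjusted p 0.565, and 0.00949 in the baseline fit), and with library size alone it was 0.02. Abcb4 went the other way. It had 304, 199.8, 293, 249.5 and 263 CPM in WT 1 to 5 and 388, 371, 355, 384 and 397 CPM in the KO mice. The log2 fold change was 0.53 (SE 0.28, adjusted p 0.213, and 0.0022 in the baseline fit), and with library size alone it was 1.02 (adjusted p 0.0141). The log2 ratio of Abcb11 to Slc10a1 was 0.48 ± 0.17 (SD, n = 5) in WT and 1.01 ± 0.57 (SD, n = 5) in KO, a difference that did not pass an exact two-sided permutation test (p = 0.0714, adjusted over 8 ratio tests 0.14).

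Of the regulators, Nr1h4 was lower and Nr0b2 was not separated. Nr1h4 had 141, 167, 109, 119.6 and 116 CPM in WT 1 to 5 and 45.2, 52.2, 61.9, 60.5 and 69.0 CPM in the KO mice. Its log2 fold change was -1.18 (SE 0.31, adjusted p 0.0127). Without KO baseline replicate 7 the adjusted p was 0.0525 and no member was called, where 1644 of 14916 genes were. With library size alone Nr1h4 was not called either. Nr0b2, a gene that FXR induces, had 68.8 to 162 CPM in WT and 54.0 to 120.3 CPM in KO. The log2 fold change was -0.40 (SE 0.33, adjusted p 0.449).

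**Figure D2:**
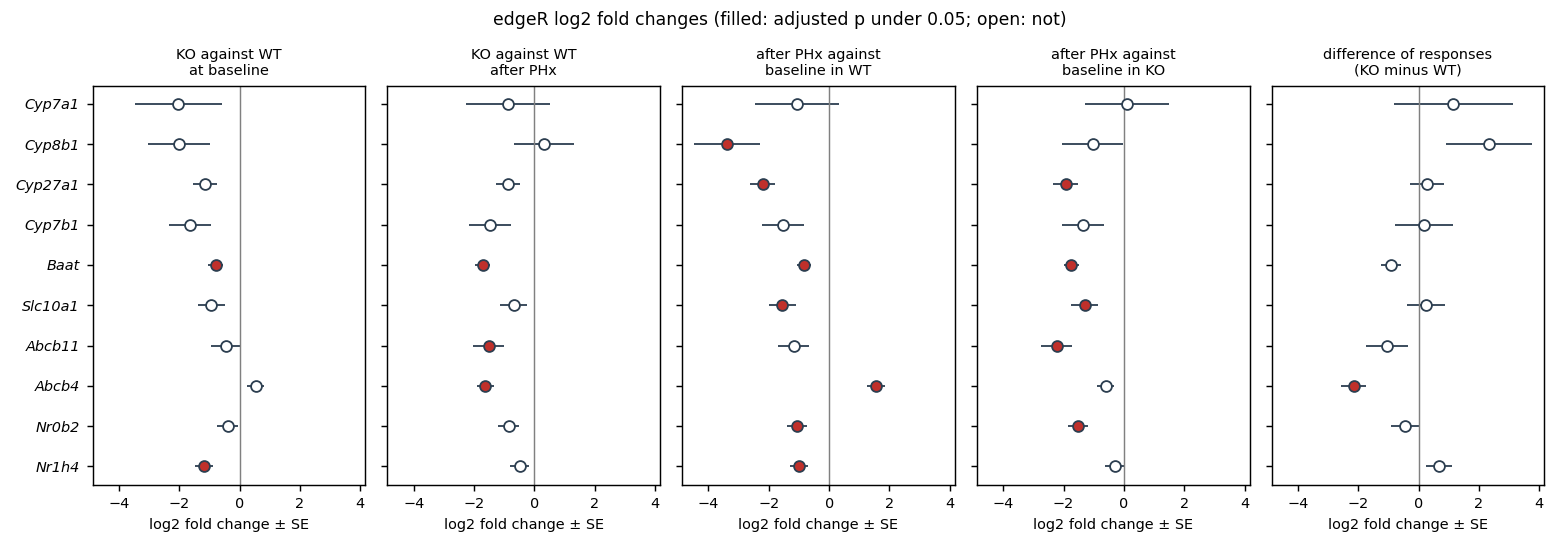
Log2 fold changes of the 10 genes (points) with their standard errors (lines) in 5 edgeR contrasts of the same fit of 20 libraries, on 1 shared scale. Filled points had an adjusted p under 0.05. Abcb4 alone had a filled point above 0, in the WT response, and alone had one for the difference of the responses.

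Per kilobase of annotated exon, Slc10a1 had the highest and Cyp7a1 the lowest group mean of the members in each of the 4 groups. After PHx single libraries departed from this order. Baat had 162 CPM per kb in WT 4, where Slc10a1 had 24.8. Cyp27a1 had 99.1 CPM per kb in KO 12, where Slc10a1 had 93.7. In WT 5 Cyp7a1 had 16.96 CPM per kb and Cyp8b1 3.80. Slc10a1 had 328 ± 27.7 CPM per kb (SD, n = 5) in WT at baseline and 171 ± 53.5 in KO at baseline. Cyp27a1 was next in WT at baseline with 306 ± 46.9 CPM per kb, which overlapped Slc10a1, and Cyp7b1, Abcb11 and Baat followed with 225.5 ± 46.6, 195 ± 15.8 and 189.7 ± 10.5. These 3 overlapped each other. Cyp8b1 had 145 ± 28.5, Nr0b2 97.1 ± 29.9, Nr1h4 56.7 ± 10.2, Abcb4 27.9 ± 4.38 and Cyp7a1 11.96 ± 6.49 CPM per kb. Neighbours in this order overlapped in range except for Nr1h4 and Abcb4. In KO at baseline Abcb11 (142 ± 18.3 CPM per kb) and Cyp27a1 (138 ± 38.1) came next after Slc10a1 and overlapped it. After PHx in WT, Abcb4 was the fourth of the 10 by mean at 81.8 ± 41.1 CPM per kb. Its neighbours Abcb11 (86.3 ± 53.5) and Cyp7b1 (78.0 ± 106) overlapped it in range.

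After PHx the WT livers had lower levels of 9 of the 10 genes by group mean and a higher level of Abcb4. In WT, 6 members were called lower, where 8.68% of all genes were, and 1 was called higher, where 11.4% were. Without overlap between the groups were 6 members lower (10.9% of genes) and Abcb4 higher (6.91%). In KO, 5 members were called lower, where 12.1% of genes were, and none higher (17.5% of genes). There 4 members were lower without overlap (7.73% of genes) and none higher (6.19%). The median log2 fold change of the members was -1.12 in WT and -1.33 in KO, against 0.04 and 0.10 over all genes. The summed hepatocyte markers were lower in every WT liver after PHx than in any at baseline, and in KO their median was 88500 CPM at baseline and 53420 CPM after PHx, with overlap. The endothelial sum was 133 to 229 CPM in WT and 150.4 to 292 CPM in KO after PHx, and the lymphocyte sum 1.21 to 6.39 CPM and 4.54 to 9.34 CPM, each below every baseline library of its genotype. The stellate, macrophage and cholangiocyte sums overlapped between baseline and PHx in both genotypes, and in the KO response 4 of the 10 cholangiocyte genes tested were called higher and 1 lower. The part of these in the responses was not tested. The responses and the genotype contrasts share samples, so their values are given side by side only.

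Cyp7a1 divided the livers after PHx within each genotype. In WT it had 48.2 CPM in mouse 1, 0.0435 in mouse 2 (1 read), 0.457 in mouse 3, 0.213 in mouse 4 and 70.8 in mouse 5. In KO it had 0.0899 CPM in mouse 7, 0.11 in mouse 8, 60.7 in mouse 10, 3.75 in mouse 11 and 0.663 in mouse 12. Libraries WT 1, WT 5 and KO 10 were at or above the WT baseline range's lower end of 25.4 CPM, and the other 7 were below every baseline library. The group contrasts had wide errors. The log2 response was -1.06 (SE 1.40, adjusted p 0.639; -1.99 to -0.68 with 1 library left out) in WT and 0.09 (SE 1.39, adjusted p 0.966) in KO. Without KO PHx replicate 10 the KO response was -3.39 with an adjusted p of 0.0618.

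The 3 libraries with Cyp7a1 above 48 CPM were also those with the highest summed level of 12 proliferation genes. That sum was 754.5 CPM in WT 1, 1155 CPM in WT 5 and 1012 CPM in KO 10. It was 207.9 CPM in KO 11, which had the next highest Cyp7a1, and 33.9 to 102 CPM in the other 6 libraries after PHx. At baseline the sum was 26.7 to 30.9 CPM in WT and 56.9 to 162 CPM in KO, below the 3 high libraries in all 10. Cyp7b1 was likewise highest in WT 1, WT 5 and KO 10. It had 552, 18.6, 28.9, 27.01 and 218 CPM in WT 1 to 5 after PHx and 49.1, 25.4, 126.5, 46.1 and 58.7 CPM in KO 7, 8, 10, 11 and 12. Cyp8b1 differed from both: it had 122 CPM in WT 1, 98.4 CPM in KO 10 and 46.95 CPM in KO 11, but 7.42 CPM in WT 5. The acute-phase sum over 12 genes was lowest in WT 5 among the WT livers after PHx, at 31420 CPM, and highest in WT 4, at 93900 CPM. The 15 clock genes summed to 277 to 485 CPM in WT and 312 to 705.5 CPM in KO after PHx. In response to PHx, 4 of them were called higher in WT and 6 in KO, where 11.4% and 17.5% of genes were. None was called lower, where 8.68% and 12.1% were. Their median log2 change was -0.09 in WT and 1.04 in KO, against 0.04 and 0.10 over all genes. The hour of day of collection was not given in the sources used here. The values by library stand beside each other, and the part of these lists in the levels of Cyp7a1 was not tested.

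**Figure D3:**
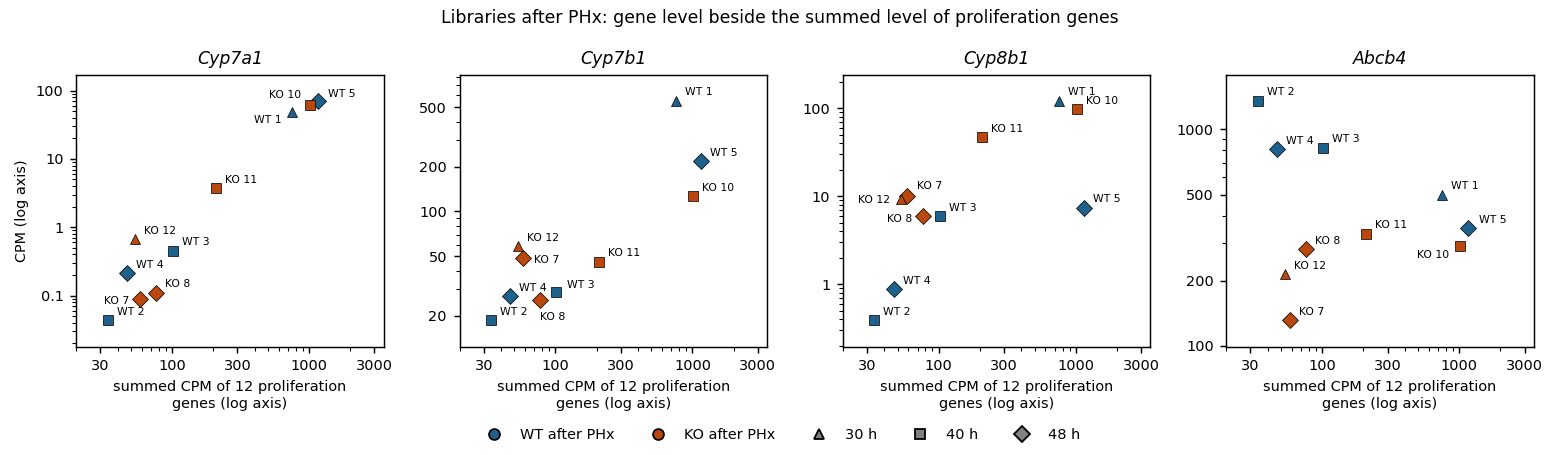
CPM of 4 genes (y, log axis) beside the summed CPM of 12 proliferation genes (x, log axis) in the 10 libraries after PHx, named by genotype and mouse number. Cyp7a1 was at 48.2 to 70.8 CPM in the 3 libraries with sums from 754.5 to 1155 CPM and at 3.75 CPM or less in the other 7.

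The second enzyme of the classical route was lower in every WT liver. Cyp8b1 in WT was at 122, 0.391, 5.94, 0.886 and 7.42 CPM in mice 1 to 5, all below the baseline minimum of 203 CPM. Its log2 response was -3.38 (SE 1.08, adjusted p 0.0334). Without WT PHx replicate 1 it was -6.27 with an adjusted p of 0.000261, whereas leaving out any other WT library except baseline replicate 2 gave an adjusted p of 0.05 or more, up to 0.0687. In the fit of the 10 WT libraries alone it was -3.35 with an adjusted p of 0.0681. In KO Cyp8b1 had 10.1, 5.97, 98.4, 46.95 and 9.28 CPM in mice 7, 8, 10, 11 and 12, and its response of -1.04 had an adjusted p of 0.44. Without KO PHx replicate 10 it was -1.96 (adjusted p 0.147), and with mouse as a fixed block in edgeR -1.84 (adjusted p 0.173). The difference between these responses was 2.34 (SE 1.42, adjusted p 0.49), and 5.23 (adjusted p 0.0375) without WT PHx replicate 1.

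Cyp27a1 fell in both genotypes. After PHx it had 145, 147, 118, 121 and 191 CPM in WT 1 to 5 and 51.2, 22.5, 60.8, 42.8 and 215 CPM in KO 7, 8, 10, 11 and 12. The log2 responses were -2.20 (SE 0.42, adjusted p 0.00158) in WT and -1.93 (SE 0.42, adjusted p 0.00337) in KO, and every mouse fell. KO 12, taken at 30 h, stood apart from the other 4 KO mice, and without it the KO response was -2.75. Cyp7b1 was lower after PHx than at baseline in all 10 mice, with log2 changes from -0.14 in WT 1 to -4.27 in WT 4. Its group response of -1.53 in WT had an adjusted p of 0.123. It was -2.86 (adjusted p 0.0156) with mouse as a fixed block in edgeR, and -2.74 (adjusted p 0.00534) without WT PHx replicate 1. In KO it was -1.36 (adjusted p 0.136), and -1.34 (adjusted p 0.0332) in the fit of the 10 KO libraries alone.

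Baat, the conjugating enzyme, fell in both genotypes and was lower in KO after PHx. After PHx the WT mice had 133, 231, 187, 314.5 and 167 CPM and the KO mice 44.6, 45.6, 82.5, 46.95 and 95.5 CPM, with no overlap. The log2 response was -0.83 (SE 0.24, adjusted p 0.0197) in WT and -1.75 (SE 0.25, adjusted p 0.00033) in KO. The difference between them, -0.91 (SE 0.34), had an adjusted p of 0.241. The WT call was lost without WT PHx replicate 5 (adjusted p 0.0745), with library size alone and with no filter.

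Of the transporters, Slc10a1 was called lower in both genotypes and Abcb11 in KO, although Abcb11 was lower in WT too. Slc10a1 had 395, 274, 257, 54.5 and 253 CPM in WT 1 to 5 after PHx, so that WT 4 stood well below the others, and 49.5 to 295 CPM in KO. Its responses were -1.55 (adjusted p 0.0213) in WT and -1.29 (adjusted p 0.0374) in KO. The WT call was lost without WT PHx replicate 4 (adjusted p 0.054). The KO call was lost without any of KO baseline replicates 8, 10, 11 and 12 or KO PHx replicates 7, 8 and 11, with an adjusted p of up to 0.103. It was also lost with no filter (adjusted p 0.0526) and in the fit of the 10 KO libraries alone (adjusted p 0.0773). Abcb11 had 483, 189.6, 707, 132 and 709.5 CPM in WT 1 to 5 after PHx and 38.4, 35.2, 229, 282 and 194 CPM in KO 7, 8, 10, 11 and 12. The 2 KO mice taken at 48 h were the lowest of the 20 libraries. The log2 response of Abcb11 was -1.18 (SE 0.50, adjusted p 0.103) in WT, although all 5 mice had lower values without overlap. In KO it was -2.23 (SE 0.52, adjusted p 0.00492). The difference between these responses was -1.05 (SE 0.70, adjusted p 0.541) and was not called.

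Abcb4, the phospholipid transporter, moved in opposite directions in the WT and the KO mice. In WT it went from 304, 199.8, 293, 249.5 and 263 CPM to 498, 1353, 823, 811 and 350.5 CPM in mice 1 to 5. In KO it went from 388, 371, 355, 384 and 397 CPM to 131, 279, 290.5, 330.0 and 214 CPM in mice 7, 8, 10, 11 and 12. All 5 WT mice rose and all 5 KO mice had lower values after PHx. The log2 response was 1.55 (SE 0.29, adjusted p 0.00131) in WT and -0.61 (SE 0.28, adjusted p 0.109) in KO. The difference of the responses was -2.16 (SE 0.41, adjusted p 0.0232), the only one called among the 10 members, where 0.389% of all genes were called in either direction. With mouse as a fixed block in edgeR it was -2.08 with an adjusted p of 0.14, and without WT baseline replicate 2 or 5 it was also not called (adjusted p of up to 0.052). In WT the highest Abcb4 values after PHx were in mice 2, 3 and 4, the libraries with the lowest proliferation sums, while in KO the lowest value was in mouse 7 with a sum of 58.3 CPM.

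**Figure D4:**
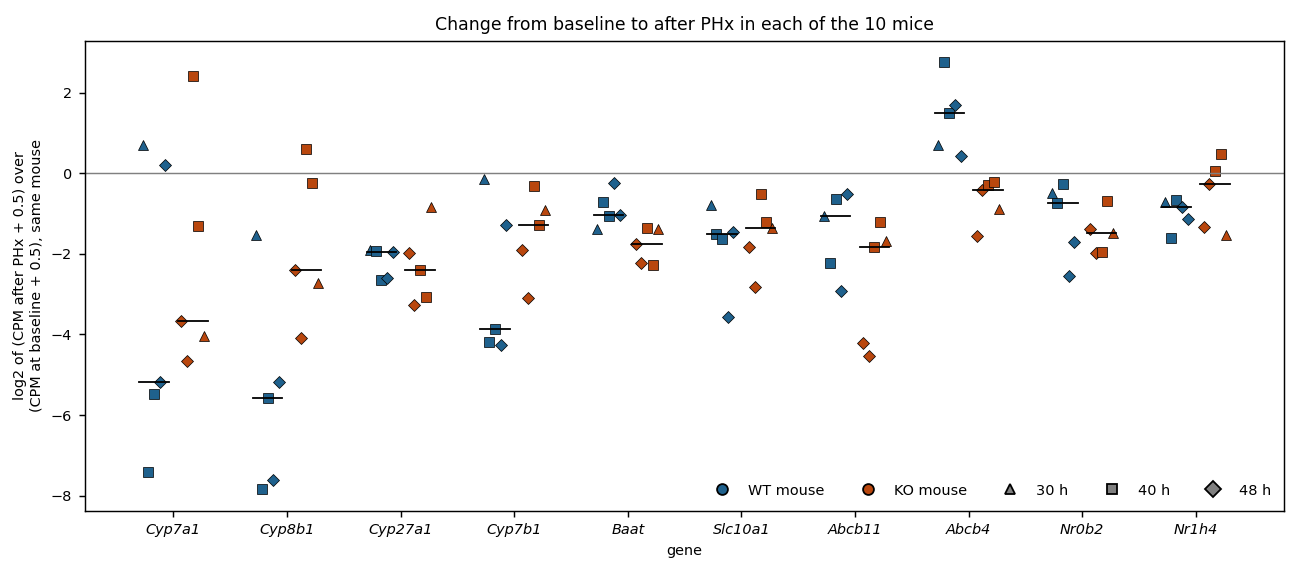
Change of each gene in each mouse, as the log2 of CPM + 0.5 after PHx over CPM + 0.5 at baseline. Points are mice, shaped by hour after PHx, and bars are medians of 5. The Abcb4 changes were 0.42 to 2.76 in the WT mice and -1.56 to -0.22 in the KO mice, while Cyp27a1, Cyp7b1, Baat, Slc10a1, Abcb11 and Nr0b2 were below 0 in all 10 mice.

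Of the regulators, Nr0b2 was called lower in both genotypes and Nr1h4 in WT. Nr0b2 had 49.0, 61.0, 95.7, 27.1 and 30.3 CPM in WT 1 to 5 after PHx and 20.3, 17.6, 30.8, 38.1 and 39.0 CPM in the KO mice. Its response was -1.06 (SE 0.34, adjusted p 0.032) in WT and -1.51 (SE 0.34, adjusted p 0.00412) in KO, and it fell in all 10 mice. The WT call was lost without WT baseline replicate 2, 3 or 4 or WT PHx replicate 1, 4 or 5 (adjusted p of up to 0.111), with library size alone, with no filter and in the fit of the 10 WT libraries alone (adjusted p 0.0505). Nr1h4 fell in the 5 WT mice, to 52.4 to 85.6 CPM, with a response of -0.99 (SE 0.31, adjusted p 0.0276). That call was lost without WT baseline replicate 1 or 2 or WT PHx replicate 2, 4 or 5 (adjusted p of up to 0.0717), with library size alone and with no filter. In KO, which began lower, Nr1h4 had 17.8, 43.2, 64.4, 84.3 and 23.4 CPM in mice 7, 8, 10, 11 and 12. Both mice taken at 40 h were above their own baseline and the other 3 were below it. The KO response was -0.31 (adjusted p 0.452), and with 1 library left out it ran from -0.66 to -0.07. The difference between the Nr1h4 responses was 0.68 (SE 0.43, adjusted p 0.506) and was not called. Without WT PHx replicate 4 or 5, 3 members were called in the WT response in place of 7. Over all genes 2255 of 14933 and 2896 of 14953 were then called, in place of 2950 of 14661.

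Between the genotypes after PHx, 3 members were called, all lower in KO, where 8.2% of genes were called lower and 16% higher. They were Baat (-1.71, SE 0.25, adjusted p 6.49e-05), Abcb4 (-1.62, SE 0.29, adjusted p 0.000476) and Abcb11 (-1.51, SE 0.51, adjusted p 0.0351). Baat and Abcb4 were lower in KO without overlap between the genotypes, where 2.97% of genes were lower and 7.05% higher without overlap. In these livers the stellate sum was 208 to 282 CPM in WT and 353 to 593 CPM in KO, and the cholangiocyte sum overlapped, at 153 to 379.9 CPM and 303 to 702.5 CPM. Of the 10 genes tested in each list, 5 were called higher in KO in both, and 1 cholangiocyte gene was called lower. Their part in these results was not tested. The Abcb11 call was lost without WT PHx replicate 1, 3 or 5 or KO PHx replicate 7 or 8 (adjusted p of up to 0.101). It was also lost with library size alone and in the fit of the 10 libraries after PHx. Cyp27a1 had a log2 fold change of -0.88 (adjusted p 0.123). It was -1.71 (adjusted p 0.000156) without KO PHx replicate 12. In limma-voom it was -1.29, with an adjusted p of 0.0187 with mouse as a random block and 0.0194 with no mouse term. Cyp7b1 was at -1.47 (adjusted p 0.129), and at -0.26 (adjusted p 0.782) without WT PHx replicate 1. Slc10a1, Nr0b2 and Nr1h4 had log2 fold changes of -0.69, -0.85 and -0.49, with adjusted p of 0.276, 0.0716 and 0.253. Leaving out 1 library moved Slc10a1 between -1.07 and -0.44, with no call. Nr0b2 was called without WT PHx replicate 4 (-1.01, adjusted p 0.0366) or 5 (-0.99, adjusted p 0.0499) and with a time term (-0.78, adjusted p 0.0314), and was at -0.53 without WT PHx replicate 3. Nr1h4 was called without KO PHx replicate 11 (-0.84, adjusted p 0.0414), and was at -0.24 without KO PHx replicate 7. Cyp7a1 was at -0.88 (adjusted p 0.686), and at -4.36 (adjusted p 0.0279) without KO PHx replicate 10. Cyp8b1 was at 0.32 (adjusted p 0.842), and at 3.21 (adjusted p 0.00926) without WT PHx replicate 1. The log2 ratio of Cyp8b1 to Cyp7a1 was 0.52 ± 2.21 (SD, n = 5) in WT and 2.96 ± 1.33 (SD, n = 5) in KO after PHx, with an exact two-sided permutation p of 0.0476 and 0.14 after adjustment over 8 tests.

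The genotypes were also compared at 40 h and at 48 h, with 2 mice per genotype at each, and not at 30 h, where there was 1 per genotype. Cyp7a1 was higher in KO at 40 h and lower in KO at 48 h. At 40 h, Cyp7a1 (6.93, SE 1.83, adjusted p 0.0229) and Cyp8b1 (4.51, SE 0.93, adjusted p 0.00702) were called higher in KO, where 8.61% of genes were. Cyp27a1, Baat and Abcb4 were called lower, where 4.68% were, with log2 fold changes of -1.35, -1.69 and -1.81. At 48 h, 7 members were called lower in KO, where 10.7% of genes were, among them Cyp7a1 (-8.39, SE 1.96, adjusted p 0.00696), Abcb11 (-3.52, adjusted p 0.00128), Baat (-2.42, adjusted p 0.000192) and Cyp27a1 (-2.08, adjusted p 0.00215). Cyp8b1 at 48 h was at 0.95 (adjusted p 0.42). The change of the genotype difference from 40 h to 48 h was itself called for Cyp7a1 (-15.32, SE 2.68, adjusted p 0.0133) and Cyp7b1 (-3.58, SE 0.96, adjusted p 0.0463), where 3.11% of genes were called lower and 1.61% higher. For Cyp8b1 it was -3.56 (adjusted p 0.0833). Single livers decided many of these values. Leaving out a library of these times ended the 40 h calls of Cyp7a1, Cyp8b1, Cyp27a1 and Abcb4 (adjusted p of up to 0.192, 0.0588, 0.193 and 0.102), and Baat stayed called in each such fit (up to 0.0469). At 48 h it ended those of Cyp7a1, Slc10a1, Abcb4 and Nr1h4 (up to 0.738, 0.892, 0.0951 and 0.305), while Abcb11, Baat and Cyp27a1 stayed called (up to 0.0133, 0.00207 and 0.0185). Without WT PHx replicate 5 the 48 h difference of Cyp7a1 was -1.12 (adjusted p 0.738), and without KO PHx replicate 10 its 40 h difference was 3.83 (adjusted p 0.142). Leaving out a library of these times moved the Cyp7a1 change between -17.78 and -8.08, with an adjusted p between 0.00021 and 0.177. For Cyp7b1 it moved between -4.54 and -1.50, with an adjusted p between 0.000874 and 0.336.

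The other genes of the pathway were taken from 3 lists. Of 16 further genes of synthesis and conjugation, 3 were called lower and none higher in KO at baseline, where 4.89% of all genes were called lower and 11.1% higher, and their median log2 fold change was -0.54 against -0.03 over all genes. With only the baseline libraries fitted, 9 were called lower and none higher, where 18% and 21.4% of genes were. The 3 called in the fit of all libraries were Hsd17b4, Abcd3 and Slc27a2, which encode proteins of peroxisomal import, activation and side-chain shortening. After PHx, 4 were called lower in KO (8.2% of all genes), among them Hsd3b7, the next enzyme after CYP7A1, at 249.9 ± 145 CPM (SD, n = 5) in WT and 93.6 ± 29.9 CPM (SD, n = 5) in KO (log2 fold change -1.42, adjusted p 0.00182). With only the libraries after PHx fitted, 2 of the 16 were called lower and none higher, where 1.57% of genes were called lower and 8.12% higher. In response to PHx, 7 of the 16 were called lower and 1 higher in WT (8.68% and 11.4% of all genes), and 5 lower and 1 higher in KO (12.1% and 17.5%). Cyp2c70, which makes the muricholic acids of mice, fell from 870 ± 101 to 199.7 ± 162 CPM (SD, n = 5) in WT and from 484 ± 115 to 108.5 ± 96.2 CPM (SD, n = 5) in KO, with log2 changes of -2.12 and -2.16 (adjusted p 0.00758 and 0.0056). The gene called higher was Ch25h, cholesterol 25-hydroxylase, with changes of 4.07 (adjusted p 0.05, at the threshold) and 3.64 (adjusted p 0.0303). It was at no more than 2.80 CPM in WT and 11.7 CPM in KO. With only the groups compared fitted, none of the 16 was called higher, and 8 in WT and 5 in KO were called lower. Those fits called 3079 of 12775 and 2878 of 13952 genes in either direction.

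Of 14 further transport genes 13 were tested, and they split at baseline into 4 called higher and 2 called lower in KO, where 11.1% of all genes were called higher and 4.89% lower, with a median log2 fold change of -0.39. With only the baseline libraries fitted, 4 were called higher and 6 lower, where 21.4% and 18% of genes were. Lower were the organic anion uptake transporters Slco1a1, at 793 ± 76.4 CPM (SD, n = 5) in WT and 90.5 ± 46.2 CPM (SD, n = 5) in KO (-3.13, adjusted p 0.0166), and Slco1a4 (-1.22, adjusted p 0.0137). Higher were the basolateral exporters Slc51b, from 0.389 ± 0.328 to 4.25 ± 1.95 CPM (SD, n = 5; 3.44, adjusted p 0.00793), and Abcc4, from 1.61 ± 0.239 to 5.55 ± 1.04 CPM (SD, n = 5; 1.78, adjusted p 7.33e-05). The sterol exporters Abcg5 (1.12, adjusted p 0.0027) and Abcg8 (0.73, adjusted p 0.0402) were also higher. Slc51b is also expressed by cholangiocytes, whose summed markers were higher in KO as given above; their part in this was not tested. After PHx, Slc51b rose in both genotypes, to 17.99 ± 15.9 CPM (SD, n = 5) in WT (5.52, adjusted p 0.000367) and 42.2 ± 26.04 CPM (SD, n = 5) in KO (3.31, adjusted p 0.00398). The cholangiocyte marker Krt19 was then at 0.851 to 3.06 CPM in WT and 2.65 to 49.1 CPM in KO. Epcam was at 0.305 to 1.83 CPM in WT and 2.82 to 32.9 CPM in KO, against 0.321 to 1.89 CPM and 1.83 to 3.25 CPM at baseline. Slc10a2, of the same marker list, went the other way in KO, from a mean of 24.3 CPM (8.97 to 41.75) to 8.50 CPM (4.13 to 15.05). In WT its mean was 14.4 CPM at baseline and 22.8 CPM after PHx. Their part in the level of Slc51b after PHx was not tested. Slco1a1 fell further, to 101.5 ± 115 and 13.1 ± 19.9 CPM (SD, n = 5), with changes of -2.96 and -2.80 (adjusted p 0.0189 and 0.0199). In response to PHx, 3 of the 13 were called lower and 1 higher in WT (8.68% and 11.4% of all genes), and 5 lower and 1 higher in KO (12.1% and 17.5%). Among the latter was Slco1b2, another organic anion uptake transporter, at 357 ± 134 CPM (SD, n = 5) before and 65.9 ± 48.8 CPM (SD, n = 5) after PHx (-2.44, adjusted p 0.0438). Between the genotypes after PHx, 2 of the 13 were called higher in KO (16% of all genes), Abcc4 and Abcg5, and 4 lower (8.2%), Slco1a1, Slco1a4, Abcc2 and Tmem30a. With only the libraries after PHx fitted, 2 were called higher and 2 lower, where 8.12% and 1.57% of genes were.

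Of 18 further regulators 16 were tested. At baseline 2 were called lower in KO, among them Prox1 (-1.07, adjusted p 0.0182), and none was higher in the fit of all libraries, against the same shares of all genes, with a median of -0.23. With only the baseline libraries fitted, 3 were called higher and 3 lower, where 21.4% and 18% of genes were. After PHx Nr5a2, which encodes LRH-1, a receptor that activates Cyp7a1 and Cyp8b1, was called lower in KO (-1.02, adjusted p 0.00639), as was Nr1i3 (-1.20, adjusted p 0.0474). With only the libraries after PHx fitted, none of the 16 was called, where 8.12% of genes were called higher and 1.57% lower. Hnf4a was not called in any contrast, with log2 fold changes between KO and WT of -0.24 at baseline and -0.49 after PHx. In response to PHx, Nr1i2, the xenobiotic receptor PXR, rose in WT from 61.9 ± 7.72 to 139 ± 61.0 CPM (SD, n = 5; 1.17, adjusted p 0.00231), and Zfp36l1 and Onecut1 fell (-1.39 and -2.45, adjusted p 0.00192 and 0.0148). In KO, Nr5a2, Fgfr4, Zfp36l1 and Onecut1 fell. The FGF15 receptor genes Fgfr4 and Klb were not called between the genotypes, with Fgfr4 at 0.69 (adjusted p 0.0552) at baseline.

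Fgf15 itself was counted only in KO livers after PHx. It had 66 reads in KO 7, 40 in KO 8, 1 in KO 10, 61 in KO 11 and 1 in KO 12, or 0.0381 to 1.98 CPM. The other 15 libraries had 0 reads, which over the 5 WT libraries after PHx allows up to 0.0232 CPM at a floor of 3 counts. At these levels it did not pass the expression filter, so the fit of all libraries holds no test of it.

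Profiles were compared by the root mean square difference of centred log2 levels over the 20 libraries. Nearest to Cyp7a1 were Car5a (1.07), a mitochondrial carbonic anhydrase, and Mcm10 (1.14), which encodes a replication factor. The SD of the Cyp7a1 log2 levels was itself 2.34. Mcm10 had medians of 84.3 CPM in WT at baseline and 5.33 CPM after PHx, and of 14.3 and 4.14 CPM in KO. The proliferation sum had medians of 27.6 and 101.6 CPM in WT, and of 78.3 and 76.7 CPM in KO. For Cyp8b1 the nearest genes were Abca8a (0.995) and the deiodinase gene Dio1 (1.11), and for Cyp7b1 Nxpe2 (0.576) and the LIF receptor gene Lifr (0.594). Abcb11 was nearest to Tfpi2 (0.412) and Pter (0.445). The differences in brackets are in log2 units, and the profiles share the libraries and their scaling.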

How the data were processed

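The authors deposited 1 file of raw counts per library, by Ensembl gene and not normalized. Per the series' design text, poly(A) RNA went into TruSeq libraries, fastp 0.20.0 trimmed the reads, mm10 was the genome and uniquely mapped reads were counted. The submitters' processing notes name Trimmomatic 0.36 in place of fastp. Aligner, counter, strand setting and annotation are not given in the sources used here.

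Symbols came from GENCODE M21 (46005 of 46603 identifiers matched). Of the identifiers, 21018 had no count. Counts were tested with edgeR 4.0.16 in R 4.3.3 (TMM, filterByExpr on the 4 groups, quasi-likelihood F-test, 14661 genes, 1 mean per group), tested on simulated data first. Fits with means per genotype and hour gave the 40 h and 48 h contrasts. The test of the 48 h minus 40 h difference was added after seeing the data. Alternatives used limma 3.58.1, DESeq2 1.42.0, other scalings and filters, a mouse block and each library left out. The block was a fixed term in edgeR for the PHx responses and their difference, and a random effect in limma-voom between genotypes. A limma-voom fit with no mouse term was added after seeing the data. Depth limits precision through counting error only. Per the labels, samples before and after PHx came from the same mice, so numbers pair the samples. Residuals of same-numbered samples correlated at 0.016 to 0.078 in WT and -0.055 to 0.15 in KO. The consensus correlation in limma-voom was 0.0394. Per-mouse changes use CPM + 0.5, and the 8 ratio tests the same pseudocount and exact permutation over 252 splits.

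The members and all gene lists were chosen with earlier results of these data known. Beyond the members, the text names for each contrast up to 3 called pathway genes at either end of the log2 fold changes, and the 2 genes nearest in profile to each of the 4 most variable members. Hnf4a, Nr5a2, Nr1i3, Fgfr4, Klb, Fgf15, Zfp36l1, Abcg8, Abcc2, Tmem30a, Hsd17b4, Abcd3, Slc27a2 and Slc10a2 were named after their values were seen. A further gene that this rule names is not reported here.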

Additional observations from a re-analysis of the deposited data

Results flagged for a closer look

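In each of 40 groups (10 genes in 4 groups of 5 libraries) the highest and the lowest CPM were compared with the rest. For values of like samples with a normal spread, chance would pick out about 1 group in 20. The groups after PHx mix hours and were skewed in CPM, so that share need not hold for them. WT 1 and KO 12 were the only libraries of their groups taken at 30 h. The highest of 5 values lay far from the others in 4 groups. Cyp7a1 in KO after PHx was at 60.7 CPM in mouse 10, with the next value at 3.75 CPM. Cyp8b1 in WT after PHx was at 122 CPM in mouse 1, with the next at 7.42 CPM. Cyp8b1 in KO at baseline was at 110.0 CPM in mouse 8, with the next at 65.1 CPM, and Cyp27a1 in KO after PHx was at 215 CPM in mouse 12, with the next at 60.8 CPM.

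The response of Abcb4 to PHx was called as different between the genotypes in the edgeR fit without a block, by a log2 of -2.16 (KO minus WT, adjusted p 0.0232). With mouse as a fixed block, also in edgeR, it was -2.08 with an adjusted p of 0.14 and was not called. In the same gene every WT mouse rose and every KO mouse had a lower value, with medians that differed by -1.90 on the log2 scale, a difference of the per-mouse changes that was not tested by itself.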

How the results depend on the processing

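Over the members and alternatives listed in advance, 912 values kept direction and call, 32 became called, 59 lost their call and 27 changed sign. For KO against WT at baseline, 2 members were called in the fit of all libraries, 1 with library size alone (Abcb4) and 1 with no filter. With only the groups compared 9 were called, and 0 to 2 with a library left out. Over all genes these fits called 2348 of 14661, 3634 of 14661 (3521 of them higher), 1958 of 25585 and 5242 of 13286. With a library left out 1644 to 2238 genes were called. For KO against WT after PHx it was 3 members, then 5 with a time term, 5 at 40 h and 7 at 48 h, and 2 to 4 with a library left out. The genes called there were 3544, 3665, 1949 and 3567 of 14661, and 2778 to 5126 with a library left out. For the WT response it was 7 members, then 4 with library size alone and 4 with no filter, and 3 to 7 with a library left out. The genes called there were 2950 of 14661, 4378 of 14661 and 2460 of 25585, and 2191 to 3076 with a library left out. For the KO response 4 to 5 members were called with a library left out, where 2962 to 6037 genes were. For the difference of responses it was 1 member, where 57 of 14661 genes were called. With a library left out it was 0 to 2, where 22 to 708 genes were called. With the replicate block, 0 members were called for the difference, over all mice and over the 9 mice numbered in both titles (0). Over all genes 3 of 14661 and 7 of 14977 were called in these fits. Beyond the calls given above the block changed only that of Cyp7b1 in KO over 9 mice (adjusted p 0.0424). In limma-voom with no mouse term the members called between genotypes were those called with the block, 2 at baseline and 4 after PHx. With no mouse term 2076 and 3619 of 14661 genes were called. The cause of the other changes was not tested.

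Signs changed as follows. With library size alone Abcb11 and Nr0b2 at baseline were at 0.022 and 0.047, Nr1h4 in the KO response at 0.028 and Cyp7b1 in the difference at -0.055. At 40 h Cyp7a1 was at 6.93, Cyp7b1 at 1.861 and Nr1h4 at 0.27. With a time term Cyp7a1 was at 0.355 in the WT response, -1.778 in the KO response and -2.133 in the difference, and Cyp27a1 at -0.144 in the difference. With the replicate block Cyp7a1 in the KO response was at -3.369 (9 mice: -3.393) and Cyp27a1 in the difference at -0.126 (9 mice: -0.053). With a library left out, KO against WT after PHx ran from -4.363 to 0.144 for Cyp7a1 and from -0.595 to 3.211 for Cyp8b1, and the KO response of Cyp7a1 from -3.392 to 0.432. The difference of responses ran from -2.333 to 2.116 for Cyp7a1, -0.553 to 0.491 for Cyp27a1, -0.284 to 1.372 for Cyp7b1 and -0.13 to 0.485 for Slc10a1. The 48 h minus 40 h difference ran from -2.137 to 0.109 for Slc10a1 and from -0.388 to 0.911 for Abcb4. KO against WT at 40 h ran from -0.756 to 0.153 for Slc10a1 and from -1.471 to 0.429 for Abcb11, and at 48 h from -2.66 to 0.385 for Cyp7b1. In fits that leave 1 library in an arm, that library is assumed to vary like the others.

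The log2 ratio of Cyp8b1 to Cyp7a1 differed by -0.507 to 0.096 at baseline, 1.525 to 3.015 after PHx, -2.672 to -1.192 in the WT response and 0.169 to 1.038 in the KO response. That of Abcb11 to Slc10a1 differed by 0.337 to 0.728, -1.261 to -0.757, 0.145 to 0.648 and -1.391 to -0.949 in the same order. The livers after PHx mix 3 time points with 1 or 2 mice per genotype each, and Cyp7a1 rested on 1 read in its lowest library.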
